A study of Arabidopsis thaliana with 3 samples.

Results

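TOC1 and the pseudo-response regulators PRR9, PRR7, PRR5 and PRR3 are members of a family of clock proteins of Arabidopsis thaliana. The 5 genes were taken by name and located on the TAIR10 genome, out of 27444 nuclear protein-coding genes. Regions called by the authors for LDL1 tagged with green fluorescent protein (LDL1:GFP) were collected from each gene body and the 5 kb on either side. This gave 7 of the 5928 deposited regions. The chromatin came from Col-0 seedlings that carried LDL1:GFP under the LDL1 promoter, grown under long days and harvested at 14 days. It was precipitated with an antibody against GFP in 2 libraries, each made from DNA pooled over several ChIP reactions, and 1 input library of the same line was sequenced without precipitation. The ChIP data are a single set of regions and the input a single set of intervals. Neither holds a score or a read count, so no value below has a replicate error, the depth is unknown, and no test between the ChIP and the input was possible. The sources used here do not give the hour of harvest or the state of the endogenous LDL1 gene, and no library from plants without the transgene was used.

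In the plant clock, transcription factors repress each other in turn over the day. PRR9, PRR7, PRR5 and TOC1 are made in succession from morning to evening and repress CCA1 and LHY, a pair of MYB-like factors active at dawn, which in turn repress TOC1 by binding the evening element in its promoter. Each protein of the family has a receiver-like domain without the usual phosphate-accepting residue and a CCT domain at the other end. LDL1 is the Arabidopsis counterpart of LSD1, an animal enzyme that removes methyl groups from histone H3, and it has been reported to act with the histone deacetylase HDA6 and with CCA1 and LHY in the repression of TOC1.

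LDL1:GFP regions were unevenly spread over the 5 genes. TOC1 carried 4 regions on its body, PRR9 was overlapped by 1, and PRR7 lay 116 bp from 1. The nearest region to PRR3 was 4038 bp away, and PRR5 had none within 5 kb. A region lay on the body of 2 of the 5 genes (TOC1 and PRR9), against 7.68% of all protein-coding genes. With 1 kb on either side the count was 3 of 5 (TOC1, PRR9 and PRR7), against 12.2% of all protein-coding genes, with 2 kb it was again 3 of 5, against 15.6%, and with 5 kb 4 of 5, against 25.4%. The median distance to the nearest region was 116 bp for the 5 genes and 16573 bp for all protein-coding genes. The 116 bp is the distance of PRR7 alone, to a region that covers a tRNA gene. The next region to PRR7 lay 20949 bp away, and without the one on the tRNA gene the middle value would be the 4038 bp of PRR3. These counts describe 5 genes chosen with earlier results of the data known, and no test was made on them.

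**Figure D1:**
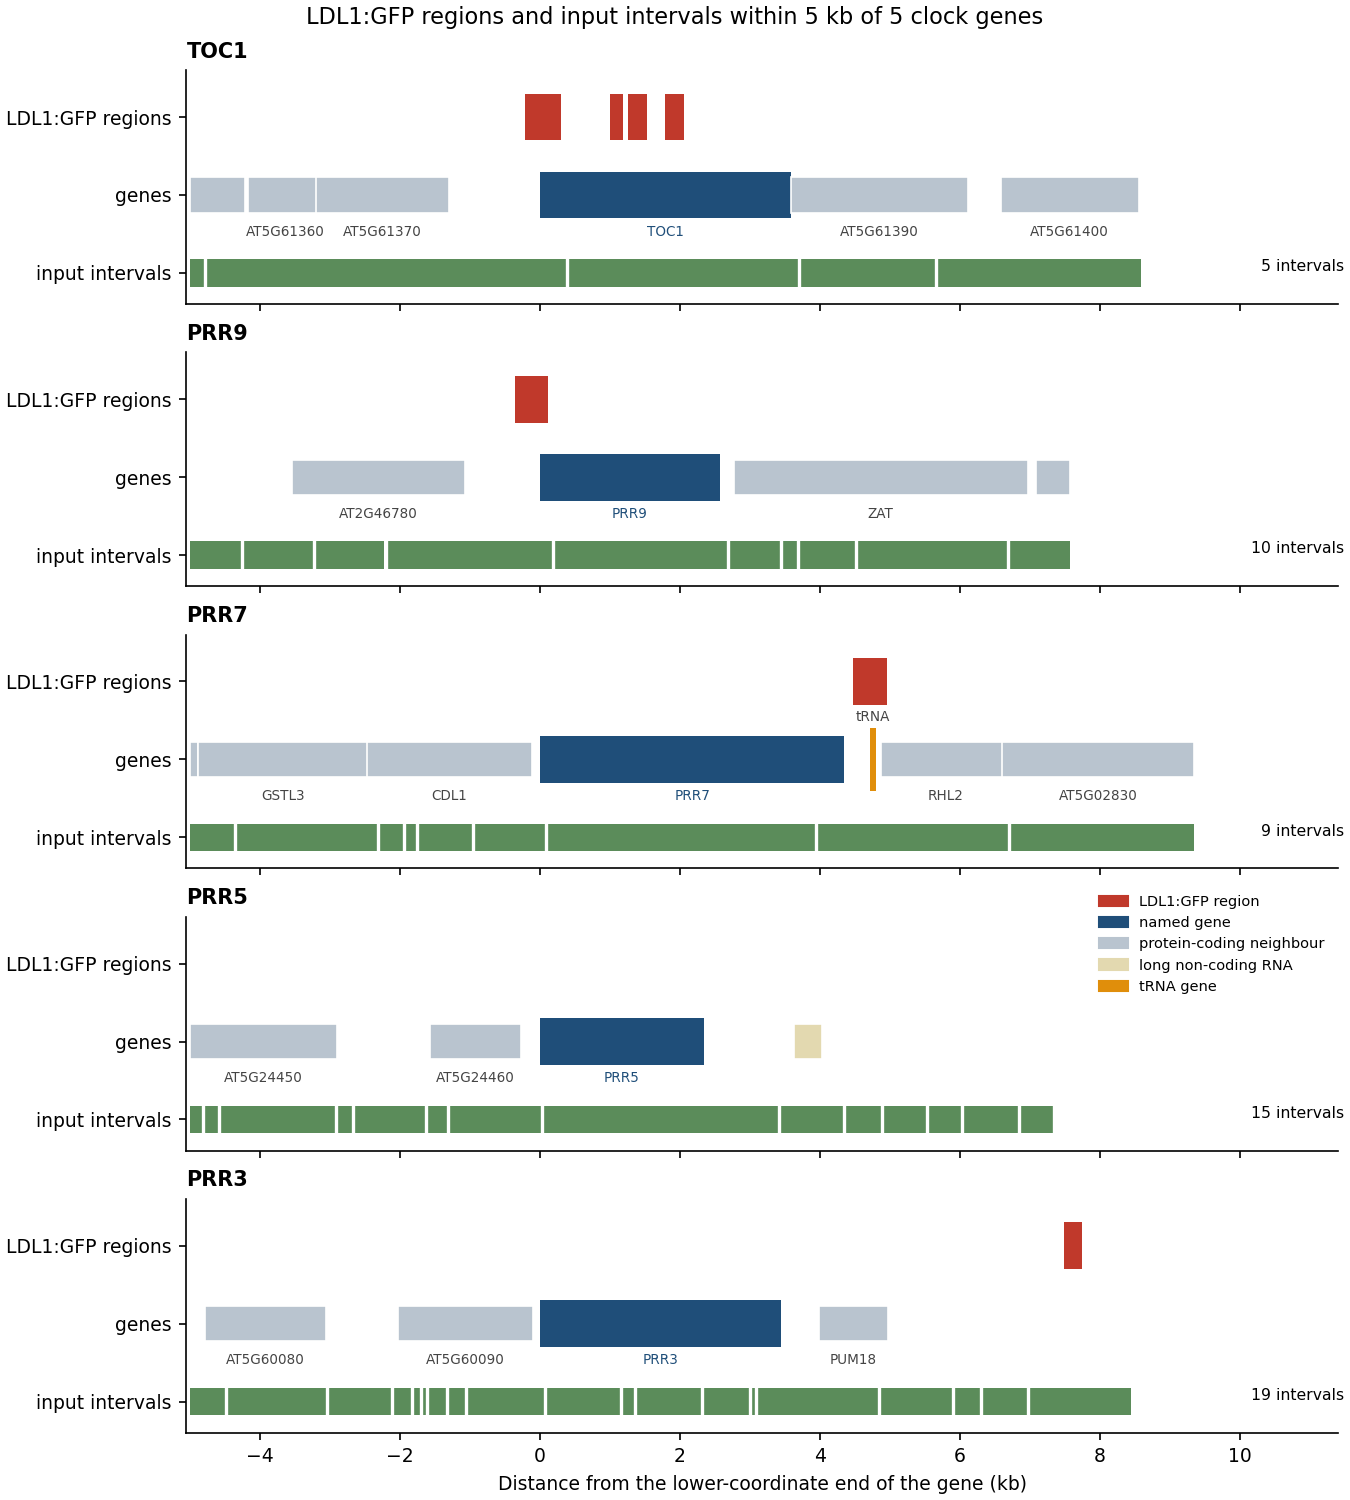
LDL1:GFP regions (upper row of each panel), annotated genes (middle row) and input intervals (lower row) within 5 kb of TOC1, PRR9, PRR7, PRR5 and PRR3, by distance in kb from the gene end with the lower coordinate. The 4 TOC1 regions lie on the gene, the PRR9 region crosses a gene end, the PRR7 region covers a tRNA gene beside it, PRR5 has no region, and breaks between input intervals, drawn wider than they are, run from few at TOC1 (5 intervals) to many at PRR3 (19 intervals).

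TOC1 (AT5G61380) is made in the evening and represses CCA1 and LHY. It spans 24674963 to 24678550 of chromosome 5 (3588 bp). The widest of its regions, chr5:24674751-24675258, measured 508 bp and crossed the gene end with the lower coordinate, with 212 bp outside the gene and 296 bp inside. Strand, exons and untranslated regions were not used here, so this end is named by its coordinate and not as the start or the stop of the gene.

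The other 3 regions of TOC1 lay wholly inside the gene. They spanned 24675969 to 24676153 (185 bp), 24676216 to 24676496 (281 bp) and 24676750 to 24677021 (272 bp). Measured from the lower end, they began 1006, 1253 and 1787 bp into the gene, and the last ended 1529 bp before the other end. A gap of 710 bp separated the region at the gene end from the next, and the following gaps were 62 and 253 bp. For scale, the median gap between consecutive regions over the genome was 2867 bp, 31.2% of gaps were 710 bp or shorter and 8.10% were 62 bp or shorter. The 4 regions therefore formed a cluster of 2271 bp, beyond which no region was met for 191977 bp on the lower side and 36241 bp on the higher side.

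In all, 1034 bp of TOC1 (28.8% of the gene) was covered by regions. At least as large a share was covered in 1.26% of protein-coding genes. At least 4 regions lay on the body of TOC1 and of 0.0947% of all protein-coding genes (26 of 27444). The share was 0.116% among genes within 20% of its length (6 of 5151, TOC1 included). It was 0.0781% among the 25595 genes of the chromosome arms, taken as bins of 1 Mb with at least 150 protein-coding genes. LHY, with 5 regions on its body, was also among the 26, and lies 0.033 Mb from a chromosome end.

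None of the 5 annotated neighbours within 5 kb of TOC1 was overlapped by a region, where 7.68% of all protein-coding genes were. At so low a share, 5 genes are too few to set the neighbours apart from other genes. The gene next to it on the higher side, AT5G61390 (an exonuclease-domain protein, NEN2), begins only 4 bp beyond the end of TOC1, but lay 1533 bp from the last TOC1 region. On the lower side AT5G61370 lay 1093 bp from the region at the gene end. TOC1 was the nearest annotated gene to each of the 4 regions.

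PRR9 (AT2G46790) acts early in the day. It spans 19232607 to 19235179 of chromosome 2 (2573 bp). Its region, chr2:19232244-19232724, measured 481 bp and, as at TOC1, crossed the gene end with the lower coordinate. Most of it lay outside the gene: 363 bp were outside and 118 bp inside, which covered 4.59% of the gene. The neighbouring gene AT2G46780 ended 704 bp before the region, and the zinc transporter gene ZAT (AT2G46800) began 2649 bp after it. No region lay on the body of any of the 3 annotated neighbours of PRR9 within 5 kb, where 7.68% of all protein-coding genes were overlapped. As at TOC1, so few neighbours cannot be set apart from other genes.

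A region across a gene end was thus found at 2 of the 5 genes, TOC1 and PRR9, against 3.46% of all protein-coding genes. PRR9 shares its part of chromosome 2 with CCA1, the gene it represses, which begins 10411 bp further on. A single region lay in the stretch between them, 10034 bp from PRR9 and beside CCA1. CCA1 had 2 regions within 1 kb, this one and the wider, 325 bp (chr2:19248004-19248328), which lay on the gene.

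PRR7 (AT5G02810) acts after PRR9 in the morning and represses CCA1 and LHY with it. It spans 637681 to 642030 of chromosome 5 (4350 bp), and no region lay on it. The region beside it, chr5:642147-642638, measured 492 bp and began 116 bp beyond the gene end with the higher coordinate. It contained the whole of the tRNA gene AT5G02815 (82 bp) and 85 bp of the next protein-coding gene, RHL2 (AT5G02820), which encodes a subunit of a plant topoisomerase. PRR7 was therefore not the nearest gene to this region. Over the genome, 14.9% of the 625 nuclear tRNA genes were overlapped by a region, and 1.38% of regions overlapped a tRNA gene. Without regions on tRNA, snRNA or rRNA genes, 2 of the 5 genes, TOC1 and PRR9, held a region within 1 kb, against 11.7% of all protein-coding genes. The other annotated neighbours of PRR7 within 5 kb, GSTL1, GSTL3, CDL1 and AT5G02830, held none on their bodies. Of all protein-coding genes, 7.68% were overlapped, so these few neighbours cannot be set apart from other genes either.

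PRR5 (AT5G24470), which acts around midday and is bound and targeted for degradation by the F-box protein ZTL, as TOC1 is, lay in a stretch without regions. It spans 8356204 to 8358546 of chromosome 5 (2343 bp). The nearest regions lay 72720 bp away on the lower side and 69490 bp away on the higher side. A larger distance to the nearest region was found for 13.1% of protein-coding genes. The region-free stretch around PRR5 measured 145 kb and held 32 whole protein-coding genes. Longer stretches made up 2.58% of all gaps between consecutive regions.

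PRR3 (AT5G60100) is a member of the family that interacts with TOC1 and shields it from ZTL. It spans 24197971 to 24201415 of chromosome 5 (3445 bp). The only region within 5 kb, chr5:24205454-24205712, measured 259 bp and lay 4038 bp beyond the end with the higher coordinate. It overlapped no annotated gene. The gene nearest to it was TOE2 (AT5G60120), an AP2-like repressor of flowering, at 1976 bp, and PUM18 lay 2516 bp away on the side of PRR3. PRR3 and TOC1 are 474 kb apart on the same arm. Between them lay 8 regions and 133 protein-coding genes, of which 3 were overlapped by a region, against 7.68% of all protein-coding genes.

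Among the 7 regions alone, the widest were those nearest to an end of one of the 5 genes, of which the PRR7 region also covers a tRNA gene. The regions at or beside a gene end of TOC1, PRR9 and PRR7 measured 508, 481 and 492 bp. They were wider than 92.7%, 91.1% and 91.9% of the 2402 regions of the chromosome arms. Among all 5928 regions they were wider than 83.7%, 81.8% and 82.6%. The 3 regions inside TOC1 and the distant region at PRR3 measured 185 to 281 bp and were wider than 2.91% to 51.9% of arm regions. The median was 281 bp over the 7 regions, 277 bp over the arm regions and 300 bp over all regions. Width is the only ranking that the regions carry. It gives the extent of a region and not its enrichment.

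**Figure D2:**
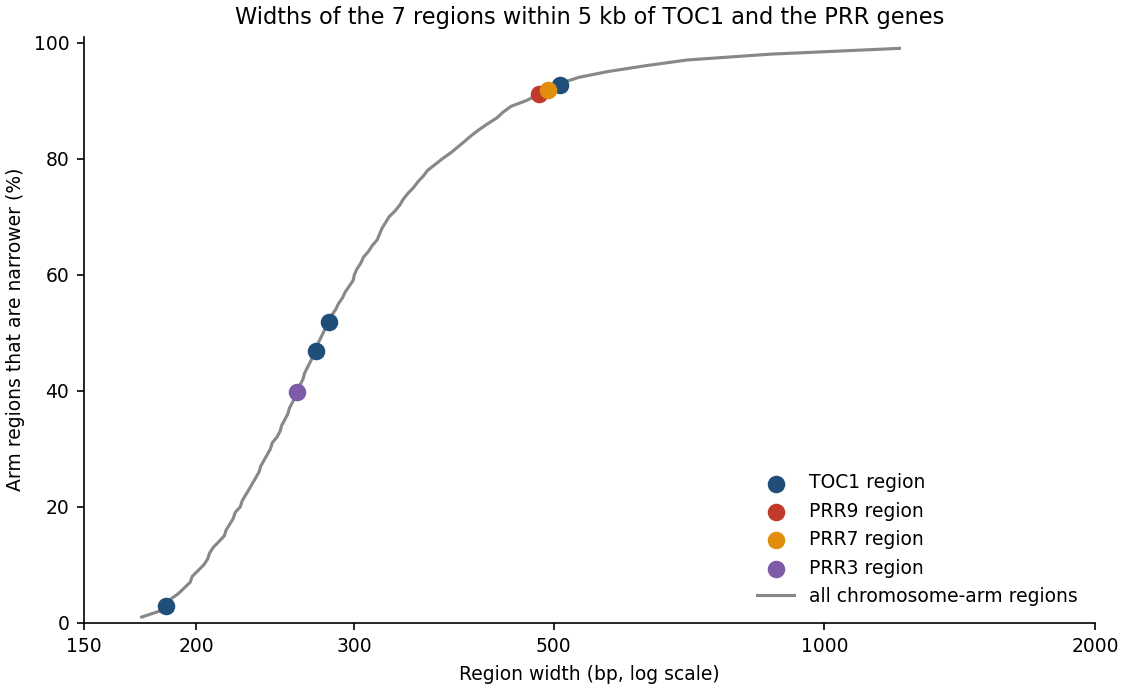
Width in bp (log scale) of the 7 regions within 5 kb of TOC1, PRR9, PRR7 and PRR3 (points), placed on the cumulative distribution of all 2402 chromosome-arm regions (line, percent of arm regions that are narrower). The regions of 508, 492 and 481 bp at TOC1, PRR7 and PRR9 lie close together above 91% of arm regions, and the other 4 lie at or below 51.9%.

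The genes differ in their distance from a chromosome end, with which the share of genes holding a region also varied. PRR9 and PRR7 lie 0.463 and 0.638 Mb from an end. Among genes within 0.25 Mb of that distance from any chromosome end, 29.0% (PRR9) and 25.7% (PRR7) held a region within 1 kb, and in their own bins of 1 Mb the shares were 30.2% and 29.6%. TOC1, at 2.297 Mb, had a background of 11.5% at like distance and 9.29% in its own bin, which held 30 regions, 4 of them on TOC1. PRR3, at 2.774 Mb in the same bin, had 16.6% at like distance. PRR5, at 8.356 Mb, had 4.75% at like distance and 5.86% in its bin. Both background shares were thus higher for PRR9 and PRR7 than for TOC1, PRR3 and PRR5.

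**Figure D3:**
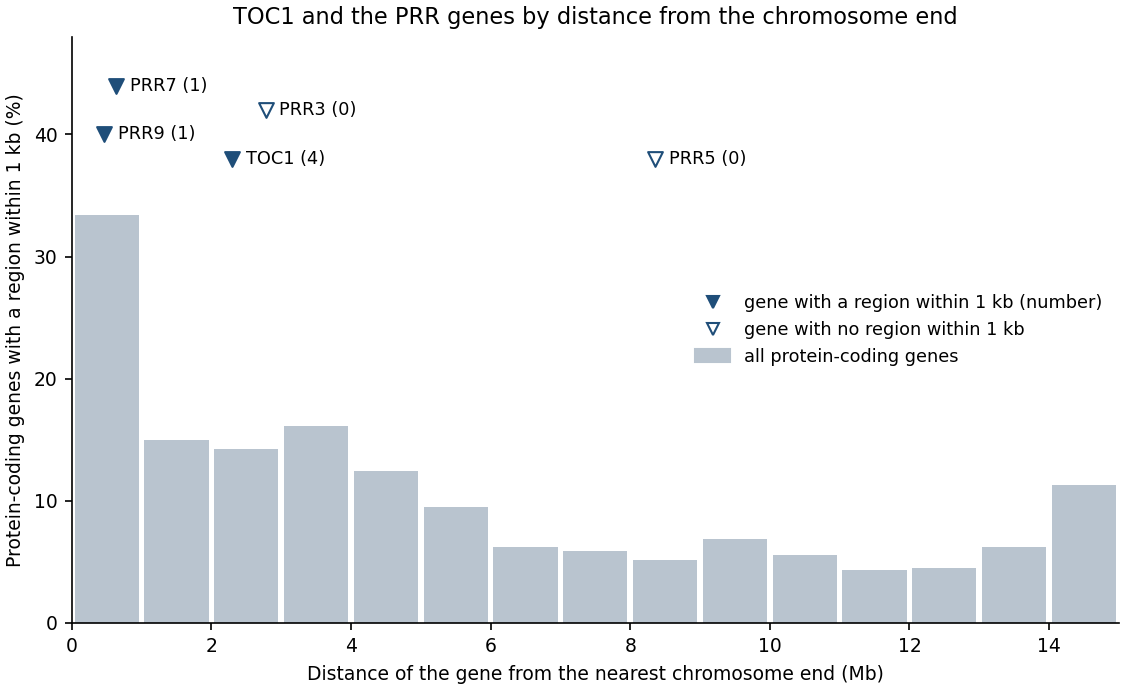
Share of protein-coding genes with an LDL1:GFP region within 1 kb (bars, percent) by distance from the nearest chromosome end in Mb, with TOC1, PRR9, PRR7, PRR5 and PRR3 marked by triangles at their distance (filled where the gene has a region within 1 kb, with the number of regions; their height has no meaning). The share was 33.4% in the outer 1 Mb, where PRR9 and PRR7 lie, 14.2% at 2 to 3 Mb, where TOC1 and PRR3 lie, and 5.18% at 8 to 9 Mb, where PRR5 lies.

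The input intervals were taken as stretches with reads, and they give no depth. The sources used here do not state how they were made from the reads. Each of the 7 regions lay wholly within 1 unbroken input interval. Of all regions, 76.8% had no base without input. The 5 kb windows of the 5 genes were covered over 98.7% to 99.7% of their length, and over all protein-coding genes the median was 98.9%. The windows differed more in how often the input was broken. TOC1 had 0.368 input intervals per kb, PRR7 0.627, PRR9 0.795, PRR5 1.22 and PRR3 1.41, and the median of all protein-coding genes was 0.933. Fewer intervals per kb than at TOC1 were found for 1.78% of genes. The 3 genes with a region within 1 kb therefore had fewer breaks in the input than the 2 without.

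Over all protein-coding genes, ranked by input intervals per kb and cut into 10 equal groups, 19.1% held a region within 1 kb in group 1, with the fewest intervals, and 7.69% in group 10, with the most. TOC1 fell in group 1, PRR7 in group 2 and PRR9 in group 4, and PRR5 and PRR3 fell in groups 8 and 9. In group 1, that of TOC1, 0.182% of genes (5 of 2745, TOC1 included) had at least 4 regions on the body, against 0.0947% of all protein-coding genes. These shares rest on 1 to 6 genes per group and did not fall in order. They were 0.219% in group 2, 0.0364% in group 4 and 0.146% in group 6. The part of input coverage in the difference between the 5 genes was not tested.

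Beside the 3 of 5 for TOC1 and the PRR genes, 9 of 28 other clock genes listed by role held a region within 1 kb, and 12.2% of all protein-coding genes did. On the gene body the counts were 2 of 5 for TOC1 and the PRR genes, 5 of 28 for the other clock genes and 7.68% for all protein-coding genes. The median distance to the nearest region was 116 bp for TOC1 and the PRR genes and 4875 bp for the 28 others. The 116 bp is the distance of PRR7 to the region on the tRNA gene, and PRR3 and PRR5 lay 4038 and 69490 bp from a region.

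By role, 3 of 7 genes of the CCA1, LHY and RVE group held a region within 1 kb, against 12.2% of all protein-coding genes. On the gene body the count was 2 of 7, against 7.68%. LHY had 5 on its body, the widest of 670 bp, and RVE1, a MYB-like factor that links the clock to auxin, had one of 406 bp at a distance of 70 bp. RVE2, RVE4, RVE6 and RVE8 had none within 1 kb. RVE4 lies 6617 bp from PRR7 and 6009 bp from its nearest region.

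The evening complex is a night-time repressor of PRR9 among others. Of its 4 genes, 2 held a region within 1 kb, against 12.2% of all protein-coding genes. They were ELF4 (344 bp) and BOA (356 bp), while ELF3 and LUX held none. LUX lay 2667 bp and ELF3 60108 bp from the nearest region. Of the LNK coactivators, which work with RVE8 to raise expression of PRR5 and TOC1, LNK4 carried a region of 191 bp and LNK3 lay 25 bp from one of 300 bp. LNK1 and LNK2 had none within 1 kb, so 2 of these 4 genes held one, against 12.2% of all protein-coding genes. On the body the count was 1 of 4, against 7.68%.

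Among GI and the F-box proteins that degrade TOC1 and PRR5, GI had a region of 420 bp at a distance of 640 bp. ZTL, FKF1 and LKP2 lay 30657 bp or more from one. Of the 9 further regulators, JMJD5, a jumonji-domain protein of the clock, lay 643 bp from a region of 376 bp. The others, CHE, LWD1, LWD2, TPL, PIF3, TIC, COR27 and COR28, had none within 1 kb. The counts within 1 kb were thus 1 of 4 and 1 of 9, against 12.2% of all protein-coding genes. With so few genes neither group can be set apart from other genes. A region across a gene end, as at TOC1 and PRR9, was found at LHY, LNK4, ELF4 and BOA, or 4 of the 28, against 3.46% of all protein-coding genes.

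**Figure D4:**
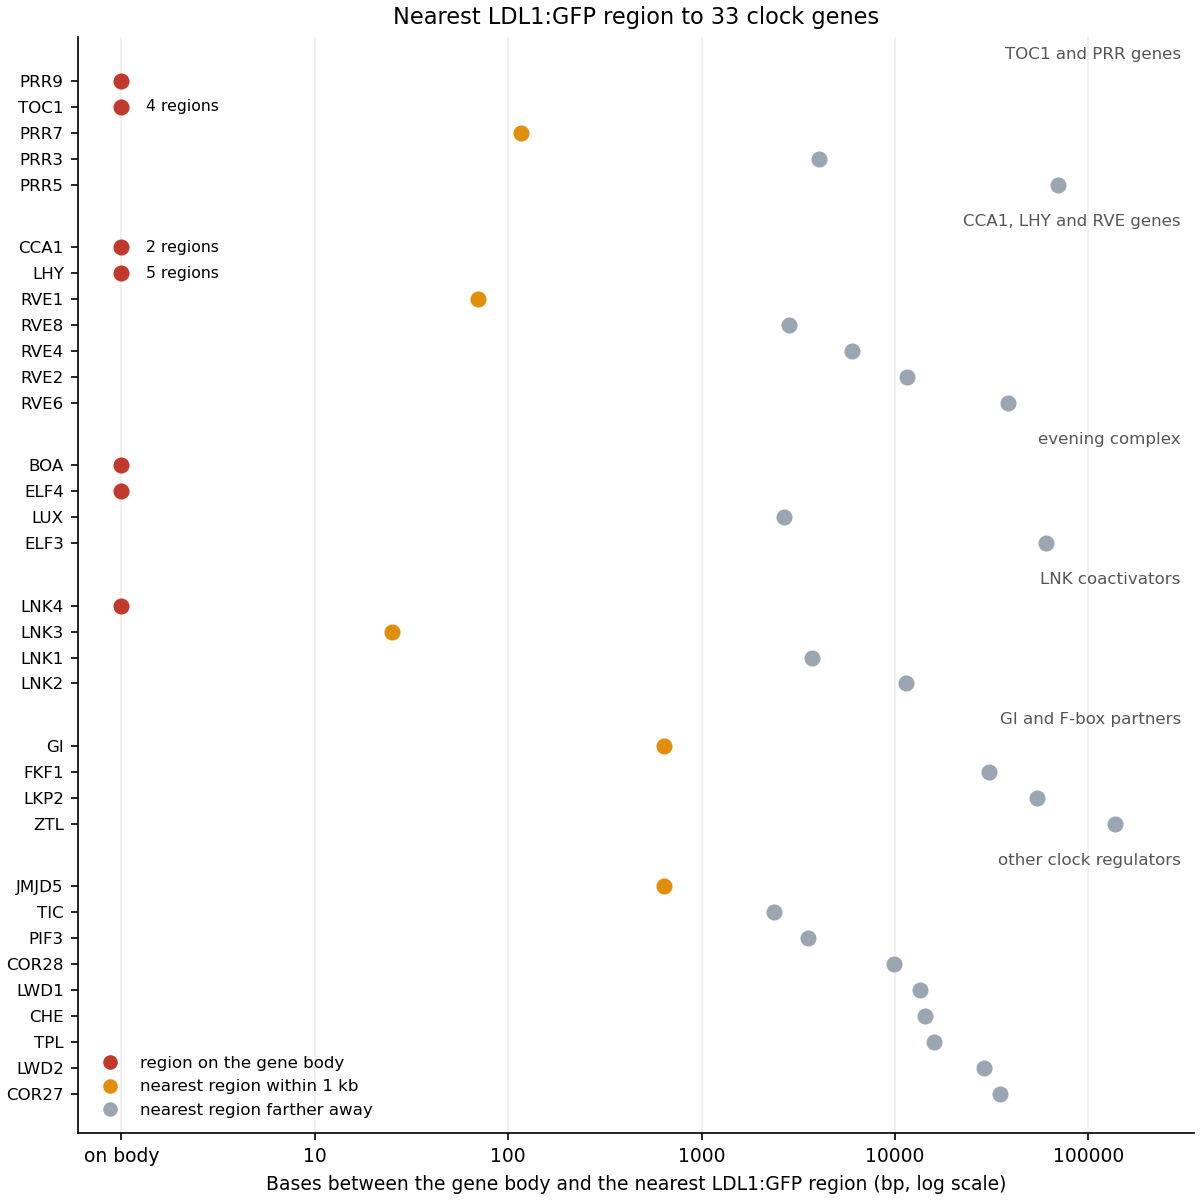
Bases between the gene body and the nearest LDL1:GFP region (bp, log scale) for 33 clock genes grouped by role, with genes that carry a region on their body drawn at the left edge and the number of regions within 1 kb written beside genes with more than 1. TOC1 (4 regions) and PRR9 sit at the left edge with CCA1, LHY, BOA, ELF4 and LNK4, PRR7 at 116 bp, PRR3 at 4038 bp and PRR5 at 69490 bp.

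Genes most like TOC1 were sought among protein-coding genes with 4 regions on the body and 4 within 1 kb, ranked by the difference in region bases within 1 kb. There were 4 such genes, compared over this 1 set of regions. TOC1 had 1246 region bases. IBM1, a histone demethylase gene, was closest with 1252, but is 7230 bp long. AT2G06570 (1281 bases) and AT5G52530 (1452 bases) followed. For PRR9, with 1 region and 481 region bases, 1616 genes had the same counts, and AT5G14020, AT2G17670 and DET2, a steroid reductase gene of brassinosteroid synthesis, had the same number of bases.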

How the data were processed

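The deposited coordinates (start and end, with no score or count) came as a set of ChIP regions and a set of input intervals, assigned to the groups by their names. Per the submitters' processing notes the tools included Bowtie and SICER, and the build was TAIR10. The sources used here do not state versions, read treatment, the threshold for a region or how the replicates were combined. Coordinates are 1-based. Gene positions, names and biotypes are those of RefSeq for TAIR10.1, which has the nuclear chromosomes of TAIR10, and all 33 clock genes were found there. Regions were counted for a gene where they overlapped its body, with the stated flank, by at least 1 bp. Distances count the bases between. The lower end of a chromosome is coordinate 1, and the higher end is the end of the last input interval.

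The members, the clock list and the rules were chosen with earlier results of these data known. Named are the 5 genes, every gene that a region within 5 kb of them overlaps or lies nearest to, clock genes with a region within 1 kb, and up to 3 genes most like each overlapped member. Further neighbours and clock genes without a region are named to complete a count. Alternatives were other flanks, wider regions, a stricter overlap, regions off tRNA, snRNA and rRNA genes, nearest gene only, regions wholly covered by input, input intervals of at least 200 bp and the last annotated gene as chromosome end. Counting was checked on 200 planted regions, of which 200 were found, with Python 3.11.15, numpy 2.4.6 and pandas 2.3.3.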

Additional observations from a re-analysis of the deposited data

How the results depend on the processing

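The count of regions within 5 kb of the 5 genes was 7. It was 3 when regions narrower than the median (300 bp) were left out, which left 1 each at TOC1, PRR9 and PRR7. Under the other alternatives it was 5 to 7. TOC1 held 3 or 4 regions under every alternative except that one. The number of the 5 genes with a region was 2 to 4. It was 2 (TOC1 and PRR9) with gene bodies alone, against 7.68% of all protein-coding genes, without regions on tRNA, snRNA or rRNA genes (11.7%), and with each region given to its nearest gene only (7.51%). The last setting left no region to PRR7 or PRR3. The count of other clock genes with a region, 9 of 28 against 12.2% of all protein-coding genes, was 5 with gene bodies alone (7.68%), 14 with a flank of 5 kb (25.4%) and 7 to 9 otherwise (5.66% to 15.6%). Input coverage of the 7 regions was 100% also with input intervals of at least 200 bp. With the last annotated gene as the chromosome end, TOC1 lay 2.294 Mb from it (2.297 Mb otherwise), and the other 4 distances moved no further. No paired analysis was possible because the 2 ChIP libraries are represented by a single set of regions. For the same reason no library could be left out. Without scores or depth, a gene with no region cannot be told from one below the threshold of detection.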

Other observations

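The gene table names 4 further pseudo-response regulators, APRR2, APRR4, APRR6 and APRR8, and 24 response regulators of cytokinin and related signalling (ARR genes), whose receiver domain is related to that of TOC1. They were looked up by name after the values of TOC1 and the PRR genes had been seen. Of these 28 genes, 4 held a region within 1 kb, against 12.2% of all protein-coding genes, and 2 carried it on their body, against 7.68%. Both counts are close to the shares over all genes. APRR2 was overlapped by a region of 272 bp. ARR8, listed as RR3, was overlapped by a region of 479 bp. The transcriptional activators ARR14 and ARR18 lay 65 and 106 bp from regions of 359 and 297 bp. APRR4, APRR6 and APRR8 had no region within 5 kb, the nearest lying 82248, 24154 and 12783 bp away. Of the 4 APRR genes, 1 thus had a region within 5 kb, against 25.4% of all protein-coding genes. TOC1 carried 4 regions within 1 kb, and none of the 28 carried more than 1. Over all protein-coding genes, 87.8% had no region within 1 kb and 10.2% had 1. More than 1 was thus rare, and 28 genes are too few to set these relatives apart from other genes.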
